A study of Homo sapiens with 6 samples.

Results

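The Polycomb group core subunits are the proteins of the repressive complexes PRC2 and PRC1. The 10 genes considered were EZH2, EZH1, EED, SUZ12 and JARID2 of PRC2 and BMI1, RING1, RNF2, CBX2 and CBX7 of PRC1. A gene counted as measured where the array had a probe set annotated to that gene alone, and its probe set with the highest mean over the 6 arrays was used. By this rule 8 of the 10 genes were measured, among 18417 measured genes in all. The probe set for BMI1 is annotated to BMI1 and to the readthrough gene COMMD3-BMI1, and RNF2 was not among the names in the platform annotation used; it was not analysed here.

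The study measured total RNA of MDA-MB231 cells, an established line of metastatic breast cancer, on single-colour arrays. There were 3 arrays of control cells, which are the parental line with no treatment, and 3 arrays of cells with a stable knockdown of G9a. Per the series text the knockdown cells are 1 clone, so what is particular to the clone and what follows the loss of G9a cannot be told apart. The controls had no treatment, so effects of making the stable line cannot be told apart from the loss of G9a either. G9a is the product of EHMT2 and adds methyl groups to lysine 9 of histone H3, a repressive mark. The labels do not state whether the replicates were separate cultures; the spread behind each p-value is that of these samples and could be technical.

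PRC2 is a histone methyltransferase that marks lysine 27 of histone H3. PRC1 attaches ubiquitin to histone H2A, and its canonical forms are brought to the PRC2 mark by CBX proteins. The marks of both complexes keep developmental regulator genes silent, and EZH2 is often abundant in dividing tumour cells, where its gene is a known target of E2F factors.

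All values are log2 intensities and all differences are knockdown minus control. EHMT2, the target of the knockdown, fell by 0.55 ± 0.10 (SE) on the log2 scale, which leaves 68.1% of the control (limma, adjusted p = 0.0259, n = 3 arrays per group), and the groups did not overlap. With 1 array left out its difference stayed negative (-0.66 to -0.49) and passed only without control replicate 3. The 7 genes fixed as markers of this line (VIM, CD44, AXL, CAV1, MSN, FOSL1 and EGFR) had mean levels from 11.58 (EGFR) to 13.63 (CAV1), above the bound of 7.53 under which the lowest 33.3% of genes lie. The 8 luminal and epithelial markers fixed as low in this line did not all lie low: their means ran from 5.49 (PGR) to 11.78 (KRT19), and 3 of the 8 lay under that bound. The 4 measured leukocyte markers had means from 5.04 (PTPRC) to 7.70 (CD14), and the 6 endothelial and fibroblast markers from 4.43 (DCN) to 8.80 (COL1A1). CDH5, an endothelial cadherin gene of the last list named after its value was seen, rose by 0.71 (limma, adjusted p = 0.0210), and the part of other cell types in the results was not tested. Control replicate 3 stood apart for the Polycomb subunits. It was the lowest or the highest of the 6 arrays for 7 of the 8 measured genes. The difference of each measured subunit is therefore also given without this array.

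The promoter sequences of the 4 subunits whose control and knockdown arrays did not overlap are shown first. These 4 were picked by that order of the same arrays, and none of them passed the test. The shares of all genes with no overlap are given below. Each runs 5′ to 3′ from 250 bases before to 30 bases after the RefSeq start in GRCh38.p14 (the outermost start where several are listed), with E2F and CCAAT matches in capitals.
EZH2 promoter (chr7:148884262-148884541, minus strand): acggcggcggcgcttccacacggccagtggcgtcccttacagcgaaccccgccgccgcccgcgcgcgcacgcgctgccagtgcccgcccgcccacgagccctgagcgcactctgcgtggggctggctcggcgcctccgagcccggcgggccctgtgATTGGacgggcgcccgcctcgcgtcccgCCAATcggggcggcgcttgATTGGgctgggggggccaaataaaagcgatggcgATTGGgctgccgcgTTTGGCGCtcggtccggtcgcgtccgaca
EED promoter (chr11:86244503-86244782, plus strand): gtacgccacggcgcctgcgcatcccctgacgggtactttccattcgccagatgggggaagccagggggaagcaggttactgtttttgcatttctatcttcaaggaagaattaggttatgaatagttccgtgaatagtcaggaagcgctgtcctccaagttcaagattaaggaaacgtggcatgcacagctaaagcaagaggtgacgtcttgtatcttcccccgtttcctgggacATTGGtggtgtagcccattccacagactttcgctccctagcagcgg
EZH1 promoter (chr17:42745011-42745290, minus strand): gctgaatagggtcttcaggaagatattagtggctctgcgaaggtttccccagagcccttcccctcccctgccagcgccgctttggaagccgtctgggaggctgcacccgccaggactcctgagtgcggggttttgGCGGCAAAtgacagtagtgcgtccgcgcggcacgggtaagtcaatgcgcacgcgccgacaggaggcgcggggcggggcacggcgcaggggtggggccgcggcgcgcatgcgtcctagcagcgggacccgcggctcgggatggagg
JARID2 promoter (chr6:15245819-15246098, plus strand): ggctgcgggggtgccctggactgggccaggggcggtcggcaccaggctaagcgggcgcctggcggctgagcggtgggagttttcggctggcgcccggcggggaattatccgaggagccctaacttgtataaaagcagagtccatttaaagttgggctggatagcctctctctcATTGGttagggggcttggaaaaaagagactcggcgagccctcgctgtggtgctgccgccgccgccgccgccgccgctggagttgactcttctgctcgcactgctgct
The E2F letters searched were TTTCCCGC, TTTCGCGC, TTTGCCGC and TTTGGCGC, and the CCAAT box, bound by NF-Y, was searched as CCAAT, both on either strand. No base was part of both motifs. In EZH2, 1 E2F match began at position 2 after the start, and 4 CCAAT matches began 94, 66, 47 and 13 bases before it. EED and JARID2 each had 1 CCAAT match and no E2F match, and EZH1 had 1 E2F match and no CCAAT match. Of all 35116 RefSeq promoter windows of the same 280 bases, 3.14% held an E2F match, 33.7% held a CCAAT match and 0.960% held 4 or more CCAAT matches. Of the 10 subunit genes, 9 had an entry in this table and CBX2 had none; E2F matches stood in 3 of the 9 (EZH2, EZH1 and SUZ12) and CCAAT matches in 5 (EZH2, EED, SUZ12, JARID2 and CBX7). The 9 windows had 13 (EED) to 47 (CBX7) CpG dinucleotides, against a median of 13 over all windows. A match is a description of these letters and not evidence of binding.

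None of the 8 measured subunits passed the test at an adjusted p of 0.05 (limma, 0 of 8), where 3.05% of all genes passed. At an unadjusted p of 0.05, 5 of the 8 lay past the threshold (EZH2, EED and CBX2 higher, EZH1 and JARID2 lower), against 19.4% of all genes (10.1% higher and 9.23% lower). The groups did not overlap for 4 of the 8: EZH2 and EED were higher, as were 14.3% of all genes, and EZH1 and JARID2 were lower, as were 12.7%. These shares rest on 8 genes read on the same 6 arrays. The count at an unadjusted p was 3 without control replicate 1 (15.9% of all genes in the same fit) or control replicate 2 (14.9%). Leaving out control replicate 3 gave 1 (21.9% of all genes), as did leaving out the first knockdown array (15.0%), and leaving out knockdown array 2 or 3 gave 2 each (19.4% and 15.3%); JARID2 was in each of these counts. Without control replicate 3 the groups did not overlap for 5 of the 8, SUZ12 being the added gene, but the share over all genes was then 43.2%. Differences ran from -0.21 (JARID2) to 0.24 (CBX2), with a median of 0.06 beside 0.03 over all genes, and the median absolute difference was 0.18 beside 0.09.

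**Figure D1:**
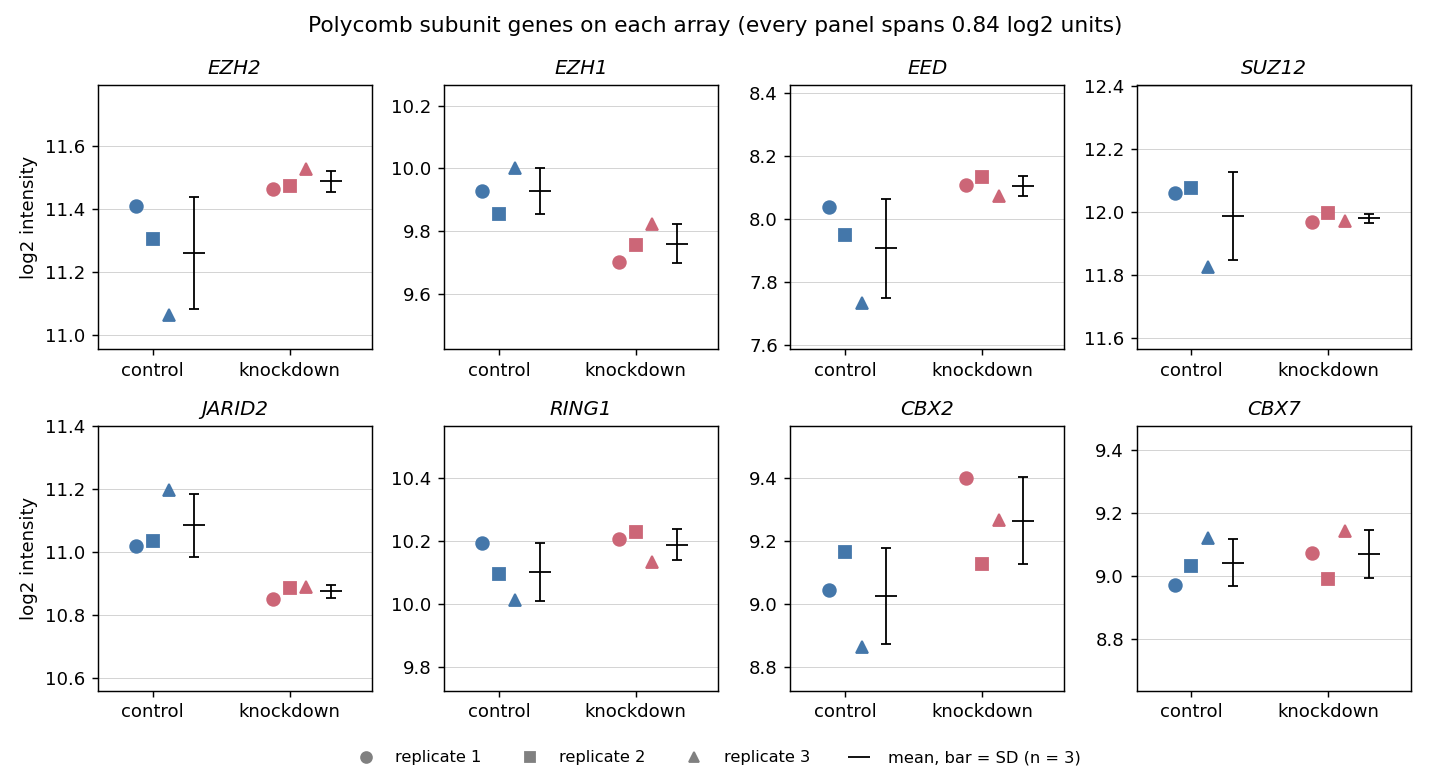
Log2 intensity (y axis) of the 8 measured Polycomb subunit genes in control and knockdown cells (x axis). Each point is 1 array, the marker shape gives the replicate number, and the black bar is the mean with its SD (n = 3). EZH2 and EED lie higher and EZH1 and JARID2 lower in every knockdown array than in any control array, and control replicate 3 (blue triangle) is the lowest array for EZH2, EED, SUZ12, RING1 and CBX2.

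EZH2 encodes the main catalytic subunit of PRC2 in dividing cells. Its arrays read 11.41, 11.31 and 11.07 in control cells and 11.47, 11.48 and 11.53 in knockdown cells. Every knockdown array was above every control array, with control replicate 3 the lowest. The mean was 11.26 ± 0.18 for control and 11.49 ± 0.03 for the knockdown (SD, n = 3). The difference was 0.23 ± 0.09 (SE), or 1.17-fold, with a 95% interval of 0.02 to 0.44, and did not pass (limma, adjusted p = 0.218). Without control replicate 3 it was 0.13 (limma, adjusted p = 0.270). With array weights, which gave that array little weight, it was 0.19 and passed (limma, adjusted p = 0.0461). That fit called 3328 of all 18417 genes, against 562 without weights. Of the 38 tested genes nearest to EZH2 on chromosome 7, 26 lay above the median of all genes and none rose or fell. The part of the neighbourhood in the EZH2 value was not tested.

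EZH1 encodes the other catalytic subunit, which is the less active methyltransferase and is known for its place in resting and differentiated cells. Its arrays read 9.93, 9.86 and 10.00 in control and 9.70, 9.76 and 9.83 in the knockdown. All knockdown arrays were below all control arrays, the opposite order to EZH2, although the nearest arrays of the groups lay close together. The difference was -0.17 ± 0.07 (SE), or 89.0% of control, with an interval of -0.32 to -0.02, and did not pass (limma, adjusted p = 0.219); it was -0.13 without control replicate 3 and -0.08 with array weights. Of the 38 tested genes nearest to EZH1 on chromosome 17, 30 lay below the median of all genes and 2 of these fell; the part of the neighbourhood in the EZH1 value was not tested.

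The EZH2 value minus the EZH1 value within each array sets the change of one catalytic subunit against that of the other. It was 1.48, 1.45 and 1.06 in control and 1.76, 1.72 and 1.70 in the knockdown. The groups did not overlap, and the knockdown arrays were close to each other where the control arrays were not. The mean difference between the groups was 0.40, at the smallest p that 3 arrays against 3 can give (exact permutation test, two-sided, p = 0.10; 0.20 adjusted over the 2 pairs tested). The lack of overlap and this p were fixed by the opposite orders of EZH2 and EZH1 given above, so they are no separate support. The mean difference was 0.26 without control replicate 3. Levels of different probe sets are not comparable, so only the change of this value can be read.

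EED, the subunit that binds the methyl mark and stimulates the enzyme, read 8.04, 7.95 and 7.73 in control and 8.11, 8.13 and 8.07 in the knockdown. As with EZH2, the knockdown arrays all lay higher and control replicate 3 was the lowest. The difference was 0.20 ± 0.08 (SE), with an interval of 0.0038 to 0.39, and did not pass (limma, adjusted p = 0.250); without control replicate 3 it was 0.11.

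SUZ12, the scaffold of PRC2, read 12.06, 12.08 and 11.82 in control and 11.97, 11.99 and 11.97 in the knockdown. The groups overlapped, since control replicate 3 lay below the knockdown arrays and the other controls lay above them. The difference was -0.0086 ± 0.08 (SE), with an interval of -0.19 to 0.17 (limma, adjusted p = 0.965). It was -0.09 without control replicate 3 and positive without control replicate 1 (0.03) or control replicate 2 (0.04). Of its 38 nearest tested genes, 29 lay below the median of all genes.

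JARID2, a cofactor that helps bring PRC2 to its target genes, read 11.02, 11.04 and 11.20 in control and 10.85, 10.89 and 10.89 in the knockdown. The knockdown arrays were all lower and close to each other, and control replicate 3 was the highest. The difference was -0.21 ± 0.07 (SE), or 86.5% of control, with an interval of -0.36 to -0.05, and had the smallest adjusted p of the subunits (limma, adjusted p = 0.140). It was -0.15 without control replicate 3. With array weights, in the fit that called 3328 of all genes, it was -0.16 and passed (limma, adjusted p = 0.0429). Of the 38 tested genes nearest to JARID2 on chromosome 6, 29 lay below the median of all genes and 5 fell; their part in the JARID2 value was not tested.

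RING1, one of the ubiquitin ligases of PRC1, read 10.19, 10.10 and 10.01 in control and 10.21, 10.23 and 10.13 in the knockdown. The groups overlapped, with control replicate 3 the lowest. The difference was 0.09 ± 0.07 (SE), with an interval of -0.07 to 0.24 (limma, adjusted p = 0.529); it was 0.04 without control replicate 3 and 0.13 without control replicate 1. A further RING1 probe set gave 0.10. RING1 lies in the same chromosome 6 region of immune genes as EHMT2, and of its 38 nearest tested genes 20 lay above and 18 below the median of all genes.

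BMI1, the ring-finger partner that stimulates the ligase, could be read only through the probe set shared with COMMD3-BMI1, a reading added after the values were seen. That probe set read 11.93, 11.94 and 11.93 in control and 11.75, 11.93 and 11.96 in the knockdown. The control arrays lay close together, and knockdown replicate 1 alone lay low. The difference was -0.05 ± 0.07 (SE; limma over all 33297 probe sets, adjusted p = 0.782).

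CBX2 and CBX7 encode chromodomain proteins that read the PRC2 mark for canonical PRC1. CBX2 read 9.04, 9.17 and 8.86 in control and 9.40, 9.13 and 9.27 in the knockdown. The groups overlapped, because control replicate 2 lay above knockdown replicate 2. The CBX2 difference was the largest of the 8, 0.24 ± 0.10 (SE) or 1.18-fold, with an interval of 0.01 to 0.47, and did not pass (limma, adjusted p = 0.233); it was 0.16 without control replicate 3 and 0.11 with array weights. Of its 38 nearest tested genes, 29 lay above the median of all genes and none rose or fell.

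CBX7 read 8.97, 9.03 and 9.12 in control and 9.08, 8.99 and 9.15 in the knockdown. The arrays of the groups were interleaved. The difference was 0.03 ± 0.07 (SE), with an interval of -0.13 to 0.19 (limma, adjusted p = 0.857). With control replicate 3 left out the CBX7 difference was 0.07. The CBX2 value minus the CBX7 value differed by 0.21 between the groups (exact permutation test, two-sided, p = 0.20, adjusted 0.20), and by 0.09 without control replicate 3.

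**Figure D2:**
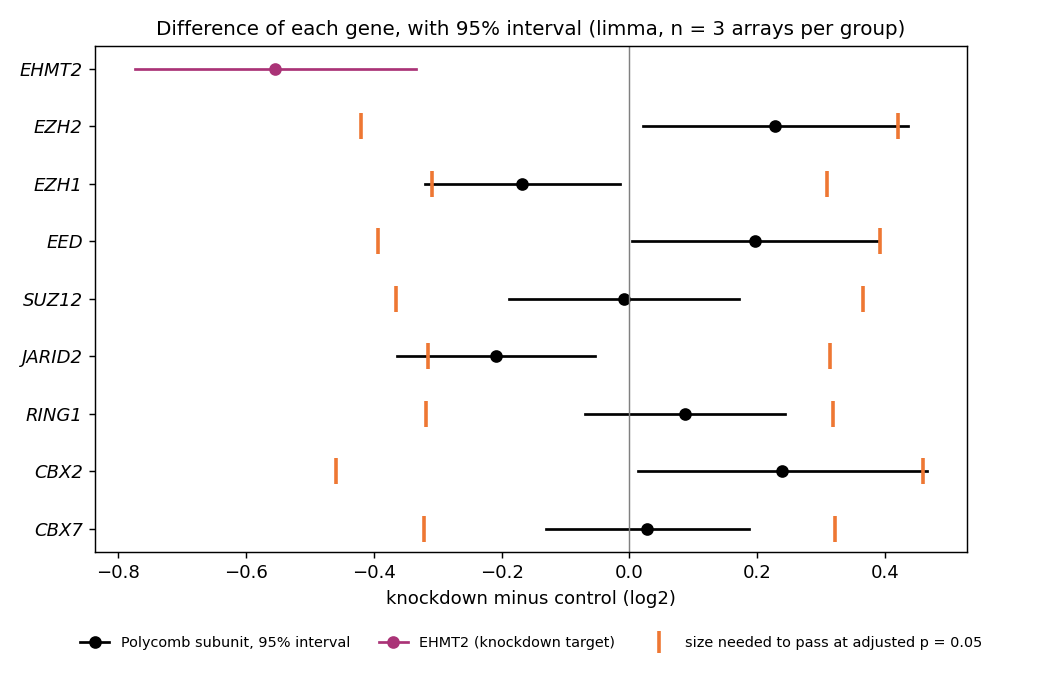
Knockdown minus control on the log2 scale (x axis) for EHMT2 and the 8 measured subunit genes (y axis), with points for the difference and lines for its 95% interval (limma, n = 3 arrays per group). Orange ticks mark the size at which each subunit would have passed with its own standard error, from 0.31 (EZH1) to 0.46 (CBX2); each subunit point lies inside its ticks, while EHMT2 lies at -0.55.

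The size that a subunit would have needed to pass, given its own standard error, was 0.42 for EZH2, 0.31 for JARID2 and 0.31 for EZH1. The widest interval bound of any subunit was 0.47, or 1.38-fold. Changes smaller than the needed size could not have passed in this fit of 3 arrays per group. The size holds for this fit only, since EZH2 (0.19) and JARID2 (-0.16) passed below it with array weights. An adjusted p above the threshold does not show that a level was unchanged. The intervals of SUZ12, RING1 and CBX7 included 0, and those of the other 5 did not, before adjustment over genes.

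**Figure D3:**
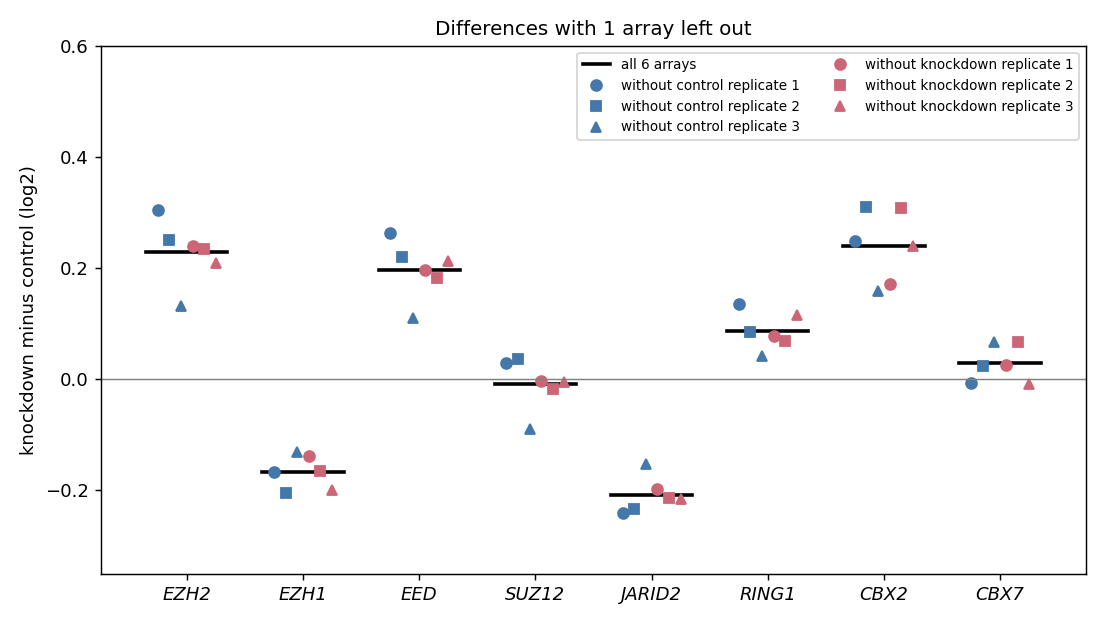
Knockdown minus control on the log2 scale (y axis) for each measured subunit (x axis), with all 6 arrays (black line) and with 1 array left out (points, coloured by group and shaped by replicate number). Leaving out control replicate 3 (blue triangle) brings EZH2 to 0.13, EED to 0.11 and CBX2 to 0.16, and only SUZ12 and CBX7 lie on either side of 0.

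The array profiles of the subunits resembled each other in part. Over the 6 arrays Pearson r was 0.97 between EZH2 and EED, -0.94 between EZH2 and JARID2 and 0.93 between EZH1 and JARID2. These are descriptions over 6 shared arrays in which control replicate 3 holds an extreme value of each of these genes. The genes most like EZH2 were ZNF552 (r = 0.996), HNRNPR (0.995) and DONSON (0.995), and 230 genes had an r above 0.95. Those most like JARID2 were FADS1 (0.999), RPL17 (0.998) and MXD1 (0.997), among 394 genes above 0.95. Those most like CBX2 were ECE1 (0.998), LINC00302 (0.995) and SNORA70B (0.991), among 75.

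The rest of the Polycomb machinery showed no gene past the threshold. The counts at an unadjusted p in this paragraph and the next stand beside 19.4% of all genes. Of the 10 PRC2 accessory and histone-binding subunits, 0 passed and 10 did not (limma; 2 at an unadjusted p of 0.05), and the list's median was -0.05. The largest values were those of LCORL (-0.25, adjusted p = 0.133) and PHF19, a PRC2 partner that binds methylated lysine 36 of histone H3 (0.15, adjusted p = 0.257). Of 20 measured further PRC1 subunits and related genes, 0 passed (limma, with 3 at an unadjusted p of 0.05), with a median of 0.02. SFMBT1, a methyl-lysine reader counted here among the related genes, had the largest value (0.26, limma, adjusted p = 0.0752). It was followed by SCML2 (0.21, limma, adjusted p = 0.222). SFMBT1 passed with an intensity trend (limma, adjusted p = 0.0422), with the lowest 33.3% of genes left out (0.0397) and with array weights (0.0090). LCORL (0.0411) and SCML2 (0.0147) passed with array weights. These fits called more of all genes: 1083 with the intensity trend, 972 with the lowest 33.3% left out and 3328 with array weights, against 562. Without control replicate 3 the differences were -0.18 for LCORL, 0.12 for PHF19, 0.21 for SFMBT1 and 0.22 for SCML2.

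The PR-DUB list and the demethylase and trithorax list were also without a call. Of 11 measured genes of the PR-DUB complex and related H2A deubiquitinases, 0 passed (limma; 0 at an unadjusted p of 0.05), with MBD6 (0.15) and HCFC1 (0.11) at the largest values. Of 17 measured lysine 27 demethylase and trithorax group genes, 0 passed (limma; 4 at an unadjusted p of 0.05). WDR5, a shared subunit of the MLL methyltransferases (0.24, adjusted p = 0.134), and SMARCD1, a BAF remodeller subunit (0.22, adjusted p = 0.158), had the largest values. Their list median was 0.09, and 13 of the 17 values were positive, where 59.6% of all genes were positive. The demethylase genes KDM6A (-0.06) and KDM6B (-0.07), named after their values were seen, were among the negative ones. This list's mean deviation from the 6-array mean was 0.01, -0.01 and -0.12 on control replicates 1, 2 and 3. It was 0.04, 0.05 and 0.03 on the knockdown replicates. Without control replicate 3 the differences were 0.19 for WDR5, 0.17 for SMARCD1, 0.16 for MBD6 and 0.03 for HCFC1.

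**Figure D4:**
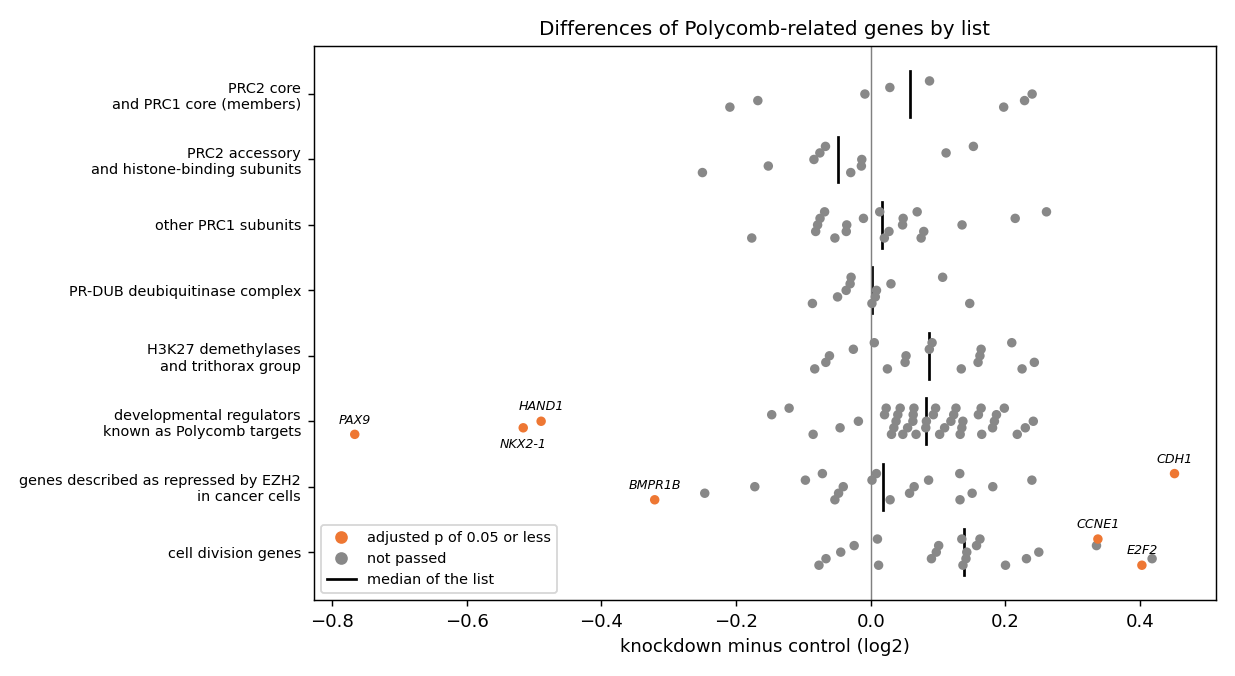
Knockdown minus control on the log2 scale (x axis) for the genes of each list (y axis), 1 point per gene, with the list's median as a black line. Orange points passed at an adjusted p of 0.05 (limma) and are named. The subunits, the accessory lists, the PR-DUB list and the demethylase and trithorax list hold none. The target lists hold PAX9, NKX2-1, HAND1 and BMPR1B (lower) and CDH1 (higher). The cell division list holds E2F2 and CCNE1 (higher).

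Genes known as Polycomb targets moved in a few cases. Of 43 measured developmental regulators, 3 fell, 0 rose and 40 did not pass (limma), which is 6.98% lower where 1.78% of all genes fell. PAX9, a paired-box factor of tooth and thymus development, fell by 0.77 ± 0.09 (SE) on the log2 scale, to 58.8% of control (limma, adjusted p = 0.0073). Its arrays read 8.03, 8.05 and 8.01 in control and 7.45, 7.22 and 7.12 in the knockdown. NKX2-1, a lung and thyroid factor, fell by 0.52 (adjusted p = 0.0380), and HAND1, a heart and trophoblast factor, fell by 0.49 (adjusted p = 0.0205). PAX9 passed in each of the 6 fits with 1 array left out; NKX2-1 passed in none of them, with adjusted p from 0.0593 to 0.148, and HAND1 passed in 2 of them, those without control replicate 3 or knockdown replicate 2.

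The falls among these targets did not extend to the list as a whole. The median of the 43 was 0.08 and 35 of them (81.4%) had positive values, beside 0.03 and 59.6% over all genes. The list's mean deviation from the mean over all arrays was -0.07, -0.04 and 0.05 on the control arrays, in order of replicate number. It was 0.11, -0.05 and -0.003 on the knockdown arrays. Only the first knockdown array lay above every control array, so the list mean showed no rise shared by the knockdown arrays. Of the 43 genes, 17 lay in the lowest 33.3% of genes by mean intensity, where a signal above background was not established. The 6-array means of PAX9 (7.65) and NKX2-1 (7.55) lay just above the bound of 7.53. Their knockdown means (7.26 and 7.29) lay under it, while that of HAND1 (9.03) lay above it. NKX2-1 and PAX9 are neighbours on chromosome 14, and of the 38 tested genes nearest to PAX9, 30 lay below the median of all genes. HAND1 on chromosome 5 had 26 of its 38 nearest tested genes below that median, 4 of which fell. The part of these neighbourhoods in the values of the 3 genes was not tested.

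Of 20 measured genes described as repressed by EZH2 in cancer cells, 1 rose, 1 fell and 18 did not pass (limma), 10.0% called beside 3.05% of all genes. CDH1, encoding the epithelial adhesion protein E-cadherin, rose by 0.45 (1.37-fold, adjusted p = 0.0177), and BMPR1B, a BMP receptor gene, fell by 0.32 (adjusted p = 0.0405). With 1 array left out, both passed only where that array was control replicate 3. The list's median was 0.02, beside 0.03 over all genes. The mean CDH1 level, 7.39, lay under the bound of 7.53, where a signal above background was not established.

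Cell division genes are given because EZH2 is known to follow them. Of 22 measured, 2 rose, 0 fell and 20 did not pass (limma), 9.09% higher beside 1.28% of all genes. E2F2, an E2F family activator, rose by 0.40 (adjusted p = 0.0481) and CCNE1, encoding cyclin E1, by 0.34 (adjusted p = 0.0481), and neither passed in any of the 6 fits with 1 array left out. E2F2 also missed the threshold after quantile normalization (0.0501) and CCNE1 after median centring (0.0674). The list's mean deviation from the 6-array mean was 0.01, -0.01 and -0.22 on control replicates 1, 2 and 3 and 0.04, 0.09 and 0.08 on the knockdown replicates 1, 2 and 3. Control replicate 3 was thus the lowest array for this list as it was for EZH2 and EED. The part of cell division in the EZH2 value was not tested.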

How the data were processed

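The deposited log2 values, 1 per probe set and array, were summarised by the authors, who appear from similar array quartiles to have scaled them; software, method and log base are not stated in the sources used here, and log2 was taken from the range of 2.13 to 14.76. Array medians lay between 7.79 and 7.86, and 3 arrays per group limit the precision. No detection call was used. Of 33297 probe sets, 19460 had 1 gene symbol in the platform annotation, 1754 several and 12083 none; 19429 of the 19460 were matched to RefSeq (GRCh38.p14) by Entrez number, which gave 18417 genes. Gene order came from the same table.

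Each gene was fitted with limma 3.58.1 in R 4.3.3 (lmFit, eBayes, no covariate, two-sided), with Benjamini-Hochberg adjustment over 18417 genes. The fit was tested on simulated data. The subunits, the 11 gene lists and the naming rule were chosen with earlier results of these data known. The rule names the subunits, EHMT2, up to 3 genes per list past the threshold (otherwise the 2 largest), and the 3 genes most like EZH2 and the 2 other subunits with the largest differences. Alternatives were quantile normalization, median centring, the lowest 33.3% of genes left out, an intensity trend, array weights, averaged probe sets, a replicate block and each array left out. Same-numbered arrays did not deviate together (r = -0.246, 0.122 and 0.0877), so the numbers were not taken as pairs. Promoter sequences are from RefSeq.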

Additional observations from a re-analysis of the deposited data

How the results depend on the processing

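The number of subunits called was 0 in every setting except array weights, where EZH2 (0.19, adjusted p = 0.0461) and JARID2 (-0.16, adjusted p = 0.0429) passed, 2 of 8. That fit gave control replicate 3 a weight of 0.273 and control replicate 2 a weight of 4.83, and it called 3328 of all genes against 562. All genes called numbered 972 with the lowest 33.3% left out, 1083 with an intensity trend, and 44 to 535 with 1 array left out. With the replicate block 217 genes and 0 subunits passed, with 0 cell division genes, 1 developmental regulator and 1 EZH2-repressed gene. The SUZ12 difference changed sign after quantile normalization (0.0136) and without control replicates 1 or 2 (with 1 array left out it ranged from -0.0898 to 0.0356), and the CBX7 difference changed sign without control replicate 1 (-0.0067) or knockdown replicate 3, in a range of -0.0086 to 0.0678. The other 6 subunits kept their sign in all settings. EZH2 minus EZH1 and CBX2 minus CBX7, which were recomputed only after quantile normalization, median centring, averaged probe sets and with 1 array left out, kept theirs there (0.26 to 0.47 and 0.09 to 0.29 with 1 array left out). With every probe set tested, a setting added after seeing the data, no subunit passed.

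Array weights called 3328 of all 18417 genes. Among these were 1 of 10 PRC2 accessory genes, 3 of 20 further PRC1 and related genes and 1 of 17 demethylase and trithorax group genes. They also held 7 of 43 developmental regulators, 7 of 20 EZH2-repressed genes and 4 of 22 cell division genes. Further PRC1 and related genes called were 1 with the lowest 33.3% left out and 1 with an intensity trend. Cell division genes called were 1 after quantile normalization or median centring and 0 with any array left out; developmental regulators numbered 1 to 2 and EZH2-repressed genes 0 to 2 there. The cause of these differences was not tested, beyond the fewer arrays or genes in the fits that leave some out. Low values could not be separated from background.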

Other observations

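Around PAX9 on chromosome 14 the tested neighbours did not move alike. SLC25A21 (-0.27, adjusted p = 0.164), MIPOL1 (-0.22, adjusted p = 0.188) and FOXA1 (-0.18, adjusted p = 0.158; all limma) had negative values without passing, while NKX2-8, which lies between NKX2-1 and PAX9, was at 0.02 and the antisense gene NKX2-1-AS1 at 0.08. The 2 outer genes DPPA3P2 (0.22) and TTC6 (0.10) had positive values. These neighbours were chosen after the values of PAX9 were seen.

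The endothelial and fibroblast markers had a mean deviation from the 6-array mean of -0.25, -0.15 and 0.02 on control replicates 1, 2 and 3 and of 0.16, 0.11 and 0.12 on knockdown replicates 1, 2 and 3. Of its 6 genes 1 rose, CDH5, and PECAM1 was at 0.42 (limma, adjusted p = 0.0591). The low level of DCN in the same list, 4.43, and the part of other cells in any result were not tested.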
